A study of Mus musculus with 4 samples.

Results

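The U3 small nucleolar RNAs of the mouse are Rnu3a and the 4 copies of U3B (Rnu3b1, Rnu3b2, Rnu3b3 and Rnu3b4), and their contacts with other RNAs were followed here. They were found by splitting the name of every RNA pair in the table of RNA contacts and taking the pairs with a U3 RNA on either side. All 5 U3 RNAs were present among 13318 RNAs, and they took part in 319 of 56636 pairs. Contacts had been measured by RIC-seq, in which RNAs lying close together in formaldehyde-fixed cells are ligated to each other and the joined (chimeric) fragments are sequenced. The cells were mouse spermatogonial stem cells, the testis cells that renew themselves and found sperm production, as 2 control libraries (genotype tag WT) and 2 libraries whose genotype tag reads Differentiation. The sources used here do not give the inducer, its duration, the mouse strain or the animals' age. Whether the 2 libraries of a group are separate cultures is not in the labels. The spread behind each p-value is therefore that of these libraries alone and can be technical.

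U3 is a box C/D small nucleolar RNA of the nucleolus, but unlike most of its class it guides cleavage and folding of the ribosomal RNA precursor rather than methylation. It base-pairs with the external transcribed spacer and with the future small-subunit rRNA, and with fibrillarin, Nop56, Nop58, Snu13 and Rrp9 it forms the seed of the SSU processome, the particle in which the small ribosomal subunit starts to be built. Unlike most vertebrate small nucleolar RNAs, U3 is made from its own genes, which RNA polymerase II transcribes, and not from introns of a host messenger RNA.

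The libraries summed to 1209031 (control 1), 1400011 (control 2), 793129 (differentiation 1) and 1155923 (differentiation 2) counts. These cover only pairs listed for all 4 libraries. Of 16 markers of undifferentiated spermatogonia, 8 were listed at all, and Id4, Nanos2, Bcl6b, Lhx1, Eomes, Pax7, Lin28a and Tspan8 were not. Their summed contact level was 944 and 1108 CPM (library-scaled counts of edgeR, by the trimmed mean of M-values, TMM) in the controls and 351 and 338 with differentiation. Of the 6 tested, 3 were lower, where 5.44% of all RNAs tested were higher and 6.75% lower (edgeR, adjusted p under 0.05). None of 3 tested markers of differentiating spermatogonia passed (summed 50.3 and 52.4 CPM against 80.7 and 63.7 CPM). Germ cell markers summed to 132 and 120 CPM against 427 and 519 CPM, and 4 of 8 were higher. Sertoli cell markers summed to 878 and 1004 CPM against 573 and 520 CPM, and 4 of 8 tested were lower. Of the fibroblast and feeder markers 1 of 9 was higher and 4 were lower, and of 5 Leydig and peritubular markers none passed. The 3 listed macrophage markers summed to 9.84, 13.6, 52.2 and 4.32 CPM, with differentiation 1 the highest. Their part in the results on U3 was not tested.

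On GRCm38.p6 the reference gene table placed Rnu3a on chromosome 10 at 40258468 to 40258679, a gene of 212 nucleotides that overlapped no other gene of that table. The other 4 lay on chromosome 11 within 28.4 kb, Rnu3b1 at 87443237 to 87443451, Rnu3b3 at 87448627 to 87448841, Rnu3b4 at 87462286 to 87462503 and Rnu3b2 at 87471368 to 87471582. All 4 were inside the gene Tex14 (87405013 to 87555823), which encodes a protein of the intercellular bridges of germ cells. The reference table gave no strand, exon or intron. The copies are near-identical in sequence, so how reads were split between them is uncertain.

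The U3 counts had a property that touches every value below. All 1276 counts (319 pairs in 4 libraries) were even, with a smallest count of 2. Among the other 56317 pairs 46.2% of the counts were even, and 5.00% of the pairs were even in all 4 libraries. Of 5613 RNAs with at least 4 pairs, the 5 U3 RNAs were the only ones with no odd count. Shares within the U3 counts and ratios between them do not change when such counts are halved, but the precision of a test does. An adjusted p is therefore also given for halved U3 counts.

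The U3B counts also stood in a fixed relation to those of Tex14. All 203 partners of Rnu3b1 to Rnu3b4 were partners of Tex14 as well, which had 421 pairs in all. In 812 of 812 values (203 partners in 4 libraries) the Tex14 count was at least the halved sum over the 4 copies, and in 260 it was exactly equal. With Gm26917, the most frequent partner, the halved U3B sum was 3455, 4614, 2525 and 3216 and the Tex14 count 3494, 4678, 2554 and 3281, in the order control 1, control 2, differentiation 1 and differentiation 2, which is used throughout. The halved U3B total came to between 81.4% and 82.0% of the Tex14 total in each library. The contact total of Tex14 was 6423, 8068, 4870 and 6503 counts (log2 change −0.06, SE 0.15, adjusted p = 0.857; 0.10 under column totals). The plot of counts with each shared partner shows no point under the line of equality. Reads of Tex14 RNA and of the U3B copies cannot be told apart in these counts.

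**Figure D1:**
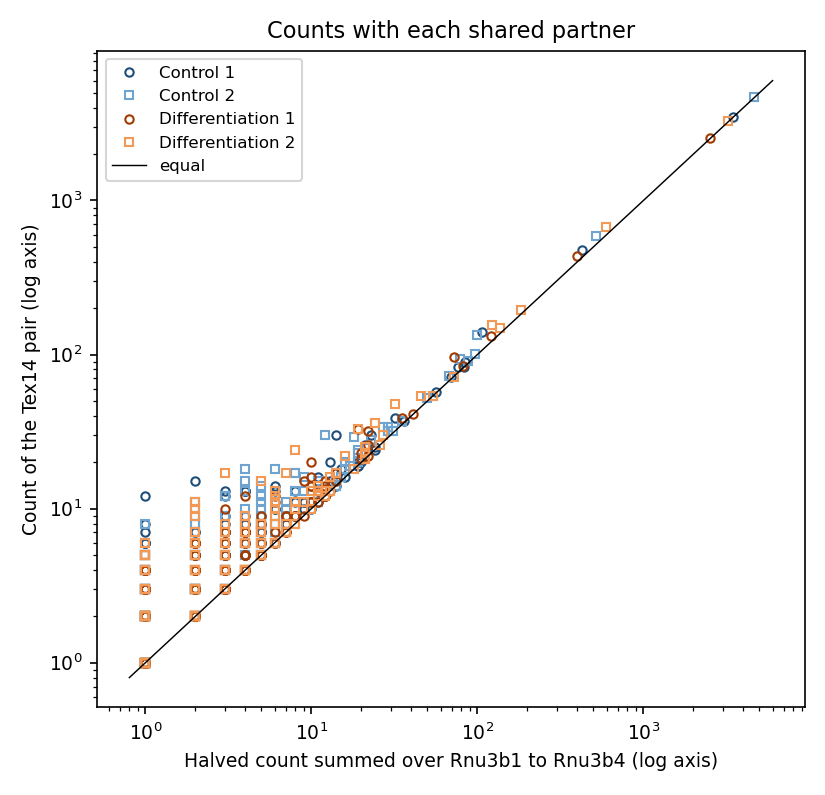
Count of the Tex14 pair (vertical, log axis) against the halved count summed over Rnu3b1 to Rnu3b4 (horizontal, log axis) for 203 shared partners, with 1 point per partner and library and colours for the 4 libraries. Every point lies on or above the line of equality, and the 4 points at upper right are Gm26917.

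Together the U3 pairs held 1.10% and 1.20% of all counts in the controls and 1.225% and 1.12% with differentiation. With U3 counts halved the shares were 0.555% (95% Wilson interval 0.541 to 0.568), 0.603% (0.590 to 0.616), 0.616% (0.599 to 0.634) and 0.564% (0.551 to 0.578). These intervals cover counting error only. The groups overlapped either way. For the shares as deposited, the difference of 0.02 percentage points was within the spread of 0.068 and 0.073 (SD, n = 2 each; exact two-sided permutation test p = 0.667, the smallest possible being 0.333). Its sign turned when control 1 (−0.03) or differentiation 1 (−0.03) was left out.

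Contact totals, the sum of all pairs of an RNA, were in the order Rnu3b3, Rnu3b4, Rnu3a, Rnu3b1 and Rnu3b2. Rnu3b3 had 2879, 3215, 3191 and 2833 CPM and Rnu3b4 2390, 2642, 2585 and 2275 CPM. Rnu3a had 1650, 1786, 1417 and 1287 CPM. Rnu3b1 had 731, 729, 644 and 554 CPM, and Rnu3b2 had 65.96, 81.6, 86.4 and 51.8 CPM on 114, 162, 106 and 96 counts. The lengths of 212 to 218 nucleotides are so close that the order per length is the same. The ranges of neighbours in this order did not overlap over the 4 libraries, although the order rests on how reads were split between copies. As parts of all U3 counts, Rnu3a made up 21.4% and 21.1% in the controls and 17.9% and 18.4% with differentiation, while Rnu3b3 made up 37.3% and 38.0% against 40.3% and 40.5% and Rnu3b4 30.97% and 31.3% against 32.6% and 32.5%. For these 3 and for Rnu3b1 (9.48% and 8.63% against 8.13% and 7.91%) the groups did not overlap, on an exact permutation p of 0.333 each, the smallest possible. Rnu3b2 overlapped. The parts make up one whole, so their changes are not separate results.

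None of the 5 contact totals passed the test between differentiation and control (edgeR's quasi-likelihood F test with Benjamini-Hochberg adjustment over 10993 RNAs, of which 12.2% passed). DESeq2 also gave 0 at an adjusted p under 0.05. At an unadjusted p under 0.05 edgeR gave 1, Rnu3a. Rnu3a averaged 1718 ± 96.2 CPM in control and 1352 ± 92.0 CPM with differentiation (SD, n = 2; log2 change −0.35, SE 0.15, unadjusted p = 0.0370, adjusted p = 0.155; halved 0.159). Both differentiation libraries lay below both controls. Over 15 alternatives its adjusted p ran from 0.0782 to 0.601. Rnu3b1 averaged 730 ± 1.39 CPM and 599 ± 63.8 CPM, also without overlap (−0.29, SE 0.15, adjusted p = 0.250). The share of all RNAs whose totals lie apart between groups is not given here, so no fall is read from this order. The totals of Rnu3b2 (−0.12, SE 0.26, adjusted p = 0.821), Rnu3b3 (−0.02, SE 0.15, adjusted p = 0.963) and Rnu3b4 (−0.05, SE 0.15, adjusted p = 0.877) overlapped between groups, and their signs depended on the scaling: under column totals they were 0.03, 0.14 and 0.10. Column totals moved the median of all RNAs from −0.0007 to 0.16. A lower contact total can come from less of the RNA, from fewer cells that hold it or from fewer contacts of each molecule, and these cannot be told apart here.

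**Figure D2:**
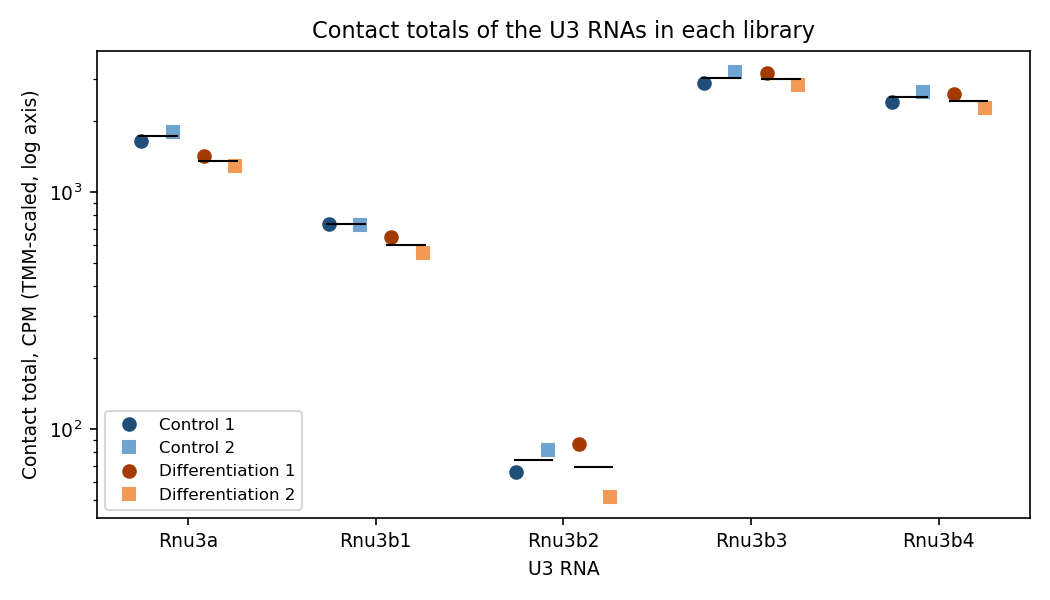
Contact total of each U3 RNA in CPM (TMM-scaled, log axis), with 1 point per library and short lines at the mean of each group (n = 2). Rnu3a and Rnu3b1 have both differentiation points below both control points, and the other 3 overlap. None passed the test between groups.

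The contacts of U3 went mostly to Gm26917. Its share of all U3 counts was 68.5%, 71.6%, 65.1% and 63.0% (95% Wilson intervals on halved counts of at most ± 1.34 percentage points). Gm26917 had no match in the reference gene table. The next partner, Gm42418, which the reference table lists as a synonym of the 18S rRNA-related gene Rn18s-rs5 (chromosome 17 at 39846354 to 39848202), took 7.20%, 7.05%, 9.45% and 10.6% (at most ± 0.823 points). By member the Gm26917 share was 77.8%, 78.7%, 73.3% and 72.7% for Rnu3a and 85.3%, 85.5%, 82.3% and 80.3% for Rnu3b1. It was 77.2%, 88.9%, 81.1% and 77.1% for Rnu3b2, on few counts. Rnu3b3 had 63.6%, 69.1%, 62.7% and 59.4%, and Rnu3b4 62.5%, 65.5%, 58.7% and 57.3%. The 2 copies with most counts thus had lower Gm26917 shares than Rnu3a and Rnu3b1 in every library. Rnu3b1 stood above Rnu3b3 by 19.7 points on average, and Rnu3a above Rnu3b3 by 11.95 points, each in 4 of 4 libraries. However, Rnu3b1 had 13 listed pairs and Rnu3a 42, against 150 for Rnu3b3 and 110 for Rnu3b4. Only pairs listed for all 4 libraries are covered, and the part of this in the shares was not tested.

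The other small RNAs examined, not all of them RNAs of the nucleus, had smaller Gm26917 shares in the same libraries. Their shares were taken of all their counts, pairs of an RNA with itself included where listed, while U3 had no such pairs. How far this adds to the differences was not tested. The spliceosomal RNAs U1, U5, U11 and U12 had 46.9%, 47.2%, 41.1% and 40.7%. U14 (Snord14c, Snord14d and Snord14e), a box C/D RNA that like U3 acts in small-subunit rRNA cleavage, had 36.4%, 39.6%, 29.7% and 32.9%, and 64 other Snord RNAs together had 25.4%, 28.1%, 22.2% and 19.5%. The RNase MRP RNA Rmrp, which acts in a later cleavage of the precursor, had 20.1% to 23.4%, the signal recognition particle RNAs (7SL) 14.1% to 18.7%, the transcription regulator 7SK 9.36% to 13.4% and the RNase P RNA Rpph1 5.44% to 8.25%. U3 was higher than each of these 7 in 4 of 4 libraries, by between 23.1 points over the spliceosomal RNAs and 60.4 points over Rpph1 on average (exact two-sided sign-flip test p = 0.125 each, the smallest possible with 4 libraries; adjusted over 16 comparisons 0.125). With Gm42418 the order was another one: U3 lay below 7SK (26.7% to 34.4%), the 7SL RNAs (19.5% to 22.75%) and the spliceosomal RNAs (16.3% to 25.3%) and above U14 (4.68% to 6.14%) in every library.

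**Figure D3:**
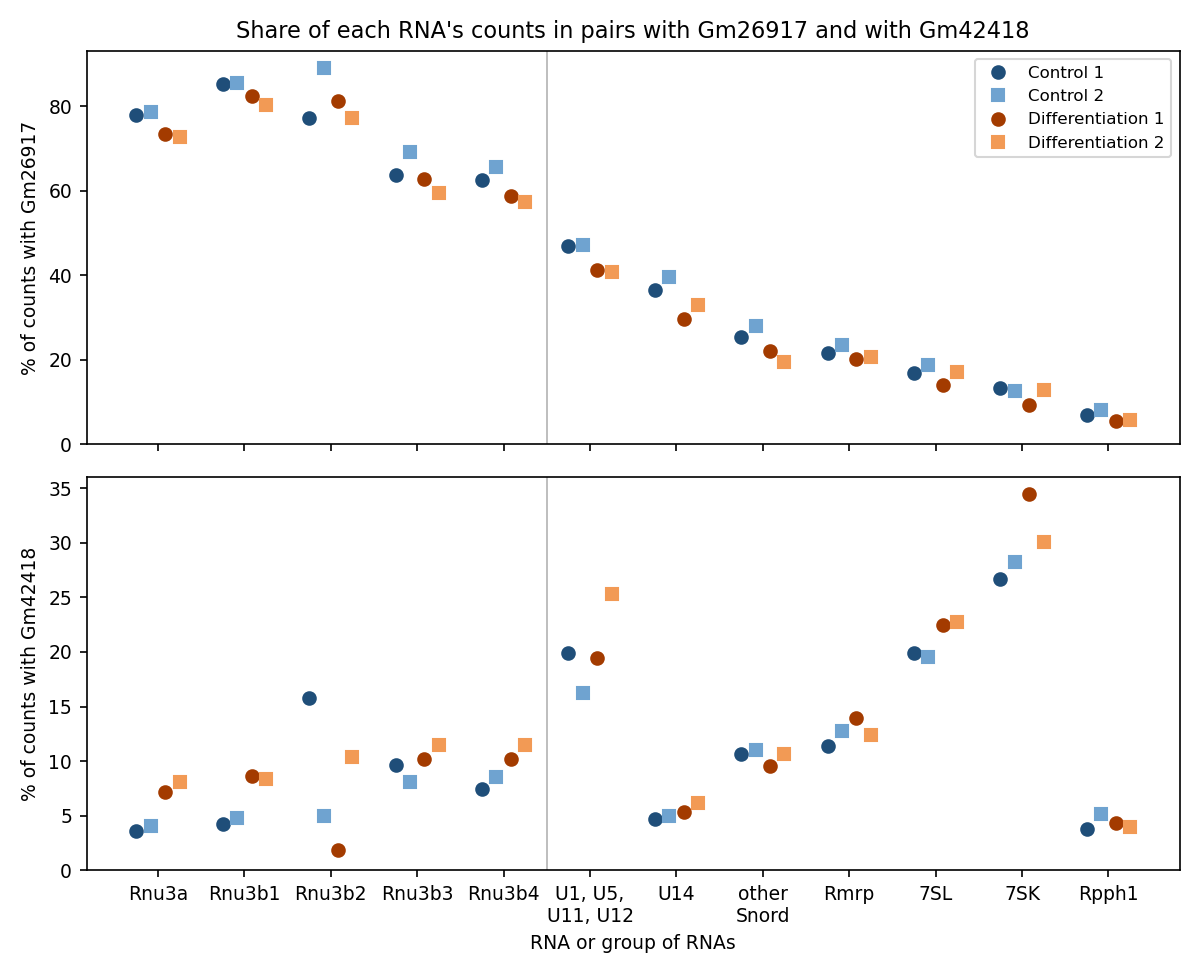
Percent of each RNA's counts in pairs with Gm26917 (upper panel) and with Gm42418 (lower panel), with 1 point per library, the U3 RNAs at the left of the grey line and other small RNAs at the right. All U3 points in the upper panel lie at 57.3% or above, and those of the other groups at 47.2% or below. Counts include pairs of an RNA with itself where listed, which U3 did not have.

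Between the groups, the Gm26917 share of U3 counts averaged 70.0% ± 2.22 in control and 64.0% ± 1.49 with differentiation, and the Gm42418 share 7.13% ± 0.102 and 10.0% ± 0.823 (SD, n = 2). Neither overlapped (exact permutation p = 0.333, the smallest possible). The Gm26917 share was lower without overlap outside U3 too, at 20.5% and 23.6% against 15.8% and 19.3% of all between-RNA counts without U3. This also held for U14, the other Snord RNAs, the spliceosomal RNAs, Rmrp and Rpph1, but not for 7SK and the 7SL RNAs. The share of U3 counts with either Gm26917 or Gm42418, 75.7%, 78.7%, 74.5% and 73.6%, did not overlap either (exact permutation p = 0.333). Counted within these contacts alone, Gm42418 made up 9.51% and 8.97% in the controls and 12.7% and 14.4% with differentiation, and for Rnu3a 4.48% and 4.91% against 8.87% and 9.97%. The same measure over all between-RNA pairs without U3 was 49.7% and 50.6% against 56.4% and 52.6%, without overlap and in the same direction. Outside U3 the direct Gm42418 share varied by RNA. It was 20.2%, 24.1%, 20.4% and 21.5% of all between-RNA counts without U3 and 10.6%, 11.01%, 9.55% and 10.6% for the other Snord RNAs, and overlapped between groups in both. For the spliceosomal RNAs, Rmrp and Rpph1 it overlapped too. A rise without overlap, as for U3, was seen for U14 (4.68% and 4.96% against 5.355% and 6.14%) and the 7SL RNAs (19.9% and 19.5% against 22.5% and 22.75%). The same held for 7SK (26.7% and 28.2% against 34.4% and 30.0%). Pairs and contact totals were fitted with separate TMM factors. These were 1.04, 1.06, 0.949 and 0.957 for pairs and 0.949, 0.944, 1.02 and 1.09 for totals. The log2 change of a pair and that of a total are therefore not on the same scale. None of the 5 pairs with Gm26917 passed the test. Their log2 changes were −0.16 for Rnu3a (adjusted p = 0.6499), −0.07 for Rnu3b1, 0.10 for Rnu3b2, 0.15 for Rnu3b3 and 0.10 for Rnu3b4, and those of Rnu3b2 and Rnu3b4 turned to −0.04 under column totals. The contact total of Gm26917 itself was lower with differentiation (82660 ± 7986 to 58570 ± 1837 CPM, log2 change −0.50, SE 0.13, adjusted p = 0.0296), a call lost in 6 of 13 alternatives, with control 1 (0.183) or control 2 (0.491) left out and over between-RNA pairs only (0.277) among them.

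At the level of single pairs 217 of the 319 U3 pairs had counts enough for a test, and 6 were higher and 2 lower with differentiation. Over all 31688 pairs tested 2.85% were higher and 2.4% lower, and 3.69% of the U3 pairs passed in either direction against 5.24% of all. With U3 counts halved 99 pairs could be tested, and 2 were higher and 1 lower, where 5.19% of all pairs passed in either direction. Without control 2 no U3 pair was higher by edgeR (25 at an unadjusted p under 0.05), without control 1 3 were, and without differentiation 1 13 were higher and 5 lower. In CPM, 30.4% of the tested U3 pairs were higher without overlap between groups and 14.7% lower, against 24.0% and 25.6% of all pairs. The median log2 change was 0.32 over the U3 pairs and 0.02 over all pairs (−0.12 for all pairs under column totals). By member, 33 of 42 pairs of Rnu3a were tested and had a median of 0.37, 98 of 150 of Rnu3b3 a median of 0.44, 72 of 110 of Rnu3b4 a median of 0.27 and 11 of 13 of Rnu3b1 a median of −0.05. Rnu3b2 had only 4 pairs.

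**Figure D4:**
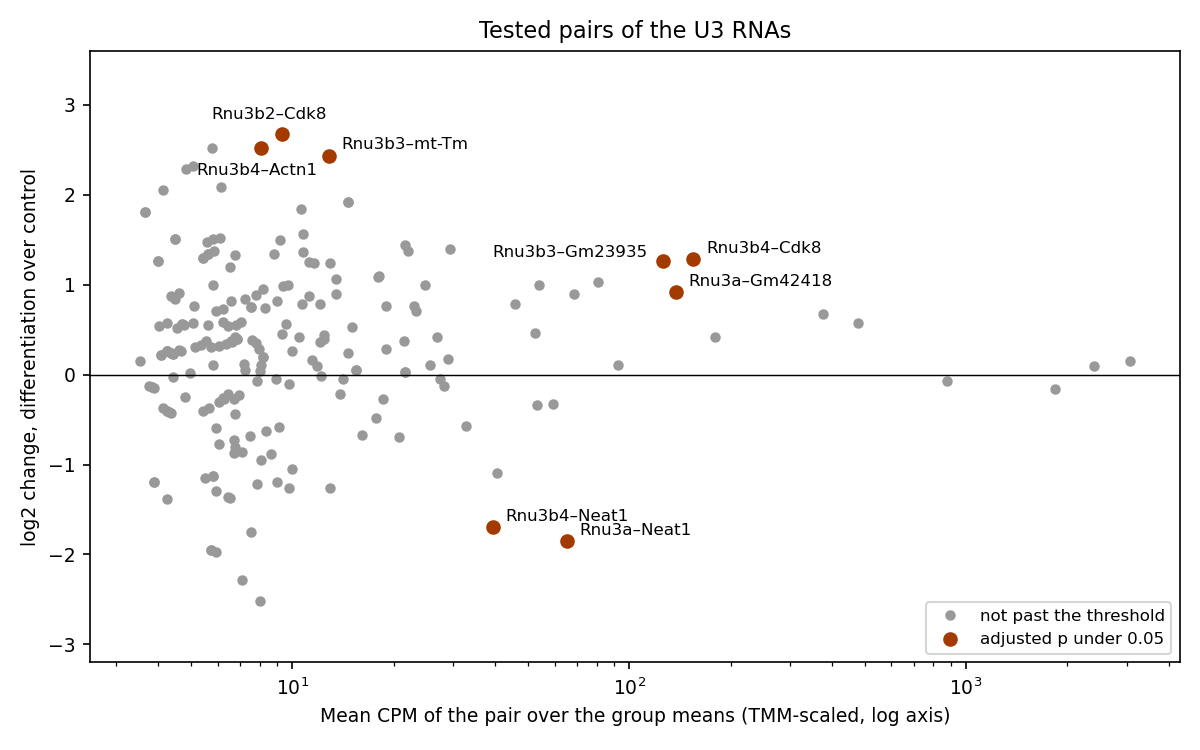
Log2 change of each of the 217 tested U3 pairs, differentiation over control, against the mean of the group means in CPM (log axis). The 8 pairs past adjusted p 0.05 are coloured and named, 6 above and 2 below 0.

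Both pairs that fell joined a U3 RNA to Neat1, the architectural RNA of paraspeckles. Rnu3a with Neat1 had 104, 162, 26 and 22 counts, or 87.65, 116, 36.96 and 21.1 CPM. Both differentiation libraries lay below both controls, and the log2 change was −1.85 (SE 0.34, adjusted p = 0.00414 by edgeR; halved 0.0164; at most 0.0438 over 12 alternatives). Rnu3b4 with Neat1 had 77.5, 43.0, 19.9 and 17.2 CPM and fell by 1.70 (SE 0.41, adjusted p = 0.0199), but not past the threshold with halved counts (0.0635) or without control 1 (0.247). Rnu3b3 with Neat1 had 50, 94, 22 and 22 counts (−1.09, SE 0.39, adjusted p = 0.111). The total of Neat1 over all its partners fell by 2.34 (SE 0.18, adjusted p = 3.07e-05, contact totals). Neat1 took 3.65%, 4.57%, 1.50% and 0.923% of Rnu3a counts and 4.54%, 5.28%, 1.21% and 1.05% of all between-RNA counts without U3, and both series of shares were lower in the differentiation libraries. In the controls its share was larger for Rnu3a than for Rnu3b3 (1.00% and 1.47%) or Rnu3b4 (2.23% and 1.14%).

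Of the 6 pairs that rose, 2 joined a U3 copy to Cdk8, which encodes the kinase of the Mediator complex. Rnu3b4 with Cdk8 had 108, 124, 178 and 196 counts and 91.0, 88.95, 253 and 188 CPM. The differentiation libraries lay above both controls (log2 change 1.29, SE 0.25, adjusted p = 0.00547; halved 0.0163), and the call was lost without control 2 (0.0624). Rnu3b2 with Cdk8 had 4, 2, 16 and 10 counts (2.68, SE 0.74, adjusted p = 0.0427; halved 0.0924). Rnu3a with Cdk8, on 10, 20, 26 and 28 counts, had a change of 1.45 that did not pass (edgeR adjusted p = 0.0820). Rnu3b1 with Cdk8, on 6, 4, 4 and 4 counts, had a change of 0.24 (adjusted p = 0.907). Rnu3b3 with Cdk8, on 50, 64, 44 and 62 counts, had a change of 0.47 (adjusted p = 0.441). Cdk8 thus took 2.61%, 2.36%, 5.61% and 4.65% of the Rnu3b4 counts and 1.00%, 1.00%, 1.12% and 1.18% of the Rnu3b3 counts. Over all its partners Cdk8 had a change of 0.26 that did not pass (edgeR adjusted p = 0.290). This change is on the scale of totals and not of pairs. The Cdk8 share of between-RNA counts without U3 was 1.41%, 1.67%, 2.00% and 2.13%.

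Rnu3b3 with Gm23935, an RNA not matched in the reference table, had 86, 106, 98 and 224 counts and 72.5, 76.0, 139 and 215 CPM. Both differentiation libraries were higher, differentiation 2 the more so (1.26, SE 0.27, adjusted p = 0.0108; halved 0.0282). This call was lost without control 1 (0.0577), control 2 (0.0685) or differentiation 2 (0.0549). Rnu3b4 with Gm23935, on 76, 60, 62 and 134 counts, had a change of 1.03 that did not pass (adjusted p = 0.0611; 0.00172 without differentiation 1). Outside U3, Gm23935 took 2.50%, 2.90%, 3.61% and 3.87% of between-RNA counts, without overlap between groups. Its total had a change of 0.29 (edgeR adjusted p = 0.212), on the scale of totals and not of pairs.

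Rnu3a with Gm42418 had 104, 144, 124 and 192 counts and 87.65, 103, 176 and 184 CPM. Its differentiation libraries were close to each other and above both controls (0.91, SE 0.24, adjusted p = 0.0363). The call was lost with halved counts (0.0794), under column totals (0.0766), with no filter (0.0961) and without control 1 (0.271) or control 2 (0.179). The pairs of Gm42418 with Rnu3b1 (0.895, adjusted p = 0.0872), Rnu3b4 (0.67, adjusted p = 0.0670) and Rnu3b3 (0.57, adjusted p = 0.0945) did not pass. In CPM they were also higher in both differentiation libraries than in both controls, as were 24.0% of all tested pairs. Rnu3b2 with Gm42418 held 18, 8, 2 and 10 counts. The total of Gm42418 over all partners had a change of −0.26 (adjusted p = 0.255), on the scale of totals and not of pairs.

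The remaining pairs that rose rested on few counts. Rnu3b3 with mt-Tm, the mitochondrial transfer RNA for methionine, had 4, 6, 20 and 16 counts (2.43, SE 0.61, adjusted p = 0.0256; halved 0.0697), and the total of mt-Tm rose as well (1.38, adjusted p = 0.00192, contact totals; 0.105 without control 2). Rnu3b4 with Actn1, which encodes an actin crosslinking protein, had 2, 4, 10 and 14 counts (2.52, SE 0.69, adjusted p = 0.0405; halved 0.0968), while the total of Actn1 fell by 0.67 (adjusted p = 0.0157, contact totals; 0.128 without control 1, 0.277 without control 2, 0.0648 under column totals, 0.0633 over between-RNA pairs only). The mt-Tm call was lost without control 1 (0.0989), control 2 (0.0877) or differentiation 1 (0.0942). The Actn1 call was lost without control 1 (0.194), control 2 (0.127) or differentiation 2 (0.0673), with no filter (0.0611) and under column totals (0.0533). The Rnu3b2 call with Cdk8 was lost without control 2 (0.238) or differentiation 1 (0.196) and under column totals (0.0526). DESeq2 gave no adjusted p for either of the last 2 pairs.

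**Figure D5:**
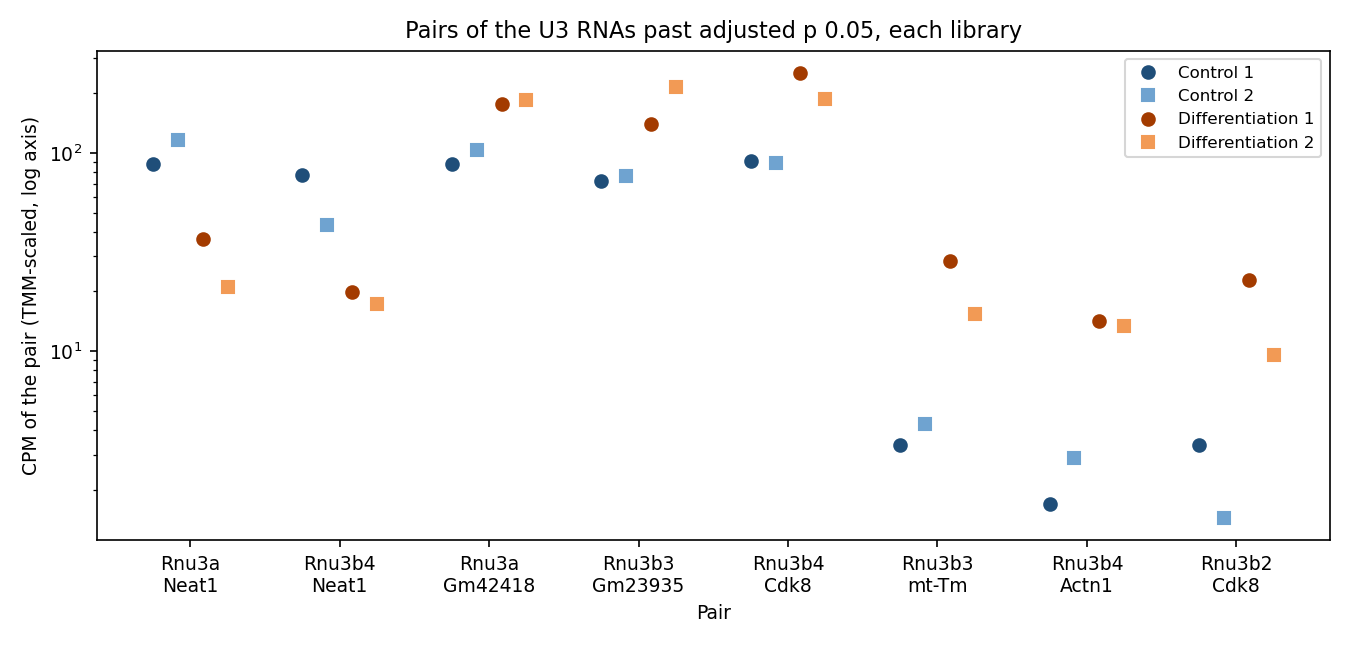
CPM (TMM-scaled, log axis) in each library of the 8 U3 pairs past adjusted p 0.05, ordered by log2 change from the 2 Neat1 pairs at the left. In each of them the control and differentiation points do not overlap, but the pairs were chosen by the test on these same counts. Of all tested pairs, 24.0% were higher and 25.6% lower without overlap.

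Counts listed for the copies of U3 were spread differently over some partners. The ion exchanger RNA Slc9a9 had 200, 194, 136 and 226 counts with Rnu3b4 and 14, 6, 8 and 18 with Rnu3b3, although Rnu3b3 had more counts in all. That was 4.84%, 3.70%, 4.29% and 5.36% of the Rnu3b4 counts against 0.281%, 0.094%, 0.204% and 0.343%, a mean difference of 4.32 points with the same direction in 4 of 4 libraries. Rnu3a had 3.09%, 2.31%, 1.84% and 2.60%. The Cdk8 share was higher for Rnu3b4 than for Rnu3b3 by 2.73 points on average, again in 4 of 4 libraries. These pairs were chosen for description after their values were seen, so no test is given, and the split of reads between copies is uncertain. Of 213 distinct partners, 144 were paired with 1 U3 RNA, 45 with 2, 14 with 3, 7 with 4 and 3 with all 5. No pair joined a U3 RNA to another U3 RNA or to itself.

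Small nucleolar RNAs were frequent among the partners. Of 198 partners with a match in the reference table, 19 were small nucleolar RNAs, 9.60% against 1.07% of the 12551 matched RNAs of the table. Of 168 partners that were protein-coding or long noncoding genes, 26 (15.5%) held a small nucleolar RNA gene, against 3.14% in the table as a whole. Partners are the better-counted RNAs, and the part of expression in these shares was not tested. In 16 pairs of a U3 RNA with such a host gene (11 hosts), the U3 RNA was also paired with a small nucleolar RNA inside that host. The counts with the inner RNAs never exceeded those with the host and were the same in all libraries in 5 of the 16, with a median of 75.9% of the host's counts. Reads of a host gene and of the RNA inside it cannot be told apart in these counts.

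U14 was an example. U14 RNAs are coded in introns of Hspa8, a heat shock protein gene, on chromosome 9 (40801276 to 40805202). Rnu3b3 with Hspa8 had 78, 72, 48 and 28 counts, and its pairs with Snord14c, Snord14d and Snord14e added up to the same 78, 72, 48 and 28. This was 1.57%, 1.13%, 1.23% and 0.534% of the Rnu3b3 counts. Differentiation 2 was the lowest, and the groups overlapped. For Rnu3b4 the U14 pairs held 18, 30, 18 and 6 of the 50, 48, 30 and 12 counts with Hspa8 (51.4% over the libraries), and for Rnu3b1 60.0%. Rnu3a with Hspa8 (24, 24, 2 and 12 counts) had no U14 pair beside it. Over all U3 RNAs the U14 pairs held 98, 112, 70 and 36 counts. Another U14 gene, Snord14a, had the same 8, 2, 4 and 4 counts with Rnu3b4 as its host Rps13. Rnu3b4 and Rpl13a had 26, 30, 10 and 30 counts, of which Snord32a, Snord33 and Snord34 inside it accounted for 22, 28, 10 and 30. Flt3l, the gene next to Rpl13a, was listed with the same counts for Rnu3b4.

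A U3 pseudogene lay inside 1 of the partners of Rnu3a. Rnu3b-ps2 lies on chromosome 2 at 121004089 to 121004303, inside the gene Tmem62 (120976478 to 121007849). Rnu3a with Tmem62 had 10, 4, 10 and 2 counts, and Rnu3a with Gm22865 had the same 10, 4, 10 and 2, which was the only pair listed for Gm22865.

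The proteins that act with U3 were seen here only through contacts of their messenger RNAs. Of 5 listed core protein RNAs of the U3 particle 1 was higher and 0 lower (median log2 change 0.18, against −0.0007 over all contact totals, of which 5.44% were higher and 6.75% lower). It was Fbl, the RNA of the methyltransferase fibrillarin, with 261, 334, 403 and 703 counts (159.6 ± 12.2 to 354 ± 36.0 CPM, log2 change 1.15, SE 0.16, adjusted p = 0.00106), which missed the threshold when control 1 (0.0639) or control 2 (0.0648) was left out. Of 38 tested RNAs of the SSU processome and its associated factors 2 were higher and 0 lower (median 0.11). They were Mphosph10, a U3-binding processome protein (8, 9, 24 and 31 counts; 1.96, SE 0.45, adjusted p = 0.0159), and the small-subunit export factor Ltv1 (28, 36, 39 and 87 counts; 1.21, SE 0.32, adjusted p = 0.0290). The Mphosph10 call was lost without control 1 (0.138) or control 2 (0.201). The Ltv1 call was lost without control 1 (0.215), control 2 (0.241) or differentiation 2 (0.150), over between-RNA pairs only (0.329) and without Gm42418 and Gm26917 pairs (0.0612).

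Of 11 small RNAs listed for cleavage of the rRNA precursor 1 was higher and 4 were lower (median −0.55). Over all contact totals 5.44% were higher and 6.75% lower. The higher RNA on the list was Rpph1, the RNase P RNA. A part in rRNA cleavage is not established here for Rpph1 or for Snord13. Snord14c, Snord14d and Snord14e lie inside the same gene, Hspa8, so their changes may not be separate results. Snord13 had 489, 678, 181 and 253 counts and fell by 1.14 (SE 0.17, adjusted p = 0.00139), which was lost without control 2 (0.0895). Snord14c had 648, 750, 254 and 382 counts and fell by 0.86 (SE 0.15, adjusted p = 0.00359), which was lost without control 1 (0.0839) or control 2 (0.119). Rpph1 rose by 0.68 (3600, 4073, 3845 and 6430 counts; SE 0.14, adjusted p = 0.0110), which was lost without control 1 (0.165) or control 2 (0.248). Of 17 tested factors of box C/D particle assembly and U3 maturation 2 were higher and 0 lower (median −0.04), the 7SK- and U6-binding protein Larp7 (1.21, SE 0.23, adjusted p = 0.00602; 0.0671 without control 1 and 0.163 without control 2) and the nucleolar chaperone Nolc1 (1.37, SE 0.41, adjusted p = 0.0489; 0.306 without control 1, 0.109 without control 2, 0.0798 with DESeq2 and 0.0534 with no filter). None of 13 tested RNAs of RNA polymerase I and its factors passed, among them the large subunit Polr1a (−0.09, adjusted p = 0.833; 0.07 under column totals) and Znrd1 (0.87, adjusted p = 0.0526). Of 17 tested factors for transcription of small RNA genes by RNA polymerase II only Pou2f1, a transcription factor of such promoters, passed (0.73, SE 0.20, adjusted p = 0.0345; lost without control 1, 0.149, or control 2, 0.358, with DESeq2, 0.051, without Gm42418 and Gm26917 pairs, 0.0736, and over between-RNA pairs only, 0.120). Of the 4 tested RNAs on the list of rRNA and rDNA-overlapping RNAs, Gm26917 alone passed, as given above. None of the core protein or processome RNAs was listed as a partner of a U3 RNA, while Snord13, Snord14a, Rmrp, Rpph1 and the nucleolin RNA Ncl were.

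The RNAs whose contact totals ran most like each member over the 4 libraries were ranked by the Euclidean distance of log2 CPM centred on each RNA's mean, among 10992 others. For Rnu3b4 the nearest was Tex14 (0.0139), ahead of Gm10052 and Gm25679. The halved U3B total came to 81.4% to 82.0% of the Tex14 total in each library, so this closeness is not a separate result. For Rnu3b3 they were Gm25679 (0.0263), Wasl and Rnu3b4 (0.037). Rnu3a had Asap1 (0.0371), Snord100 and Wac, Rnu3b1 had Rbm18 (0.0423), Ddx52 and Il4ra, and Rnu3b2 had Uimc1 (0.0582), Wdr7 and Trim24. Rnu3a lay closer to Rnu3b1 (0.115) than to Rnu3b3 (0.331) or Rnu3b4 (0.297). With 4 libraries such likeness is common, and about 3% of all RNAs lay within 0.2 of each member other than Rnu3b2 (0.691%).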

How the data were processed

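The authors deposited raw, unscaled counts of chimeric reads, 1 column a library and 1 row a pair. Per the submitters' processing notes, which state neither role nor version, STAR and GRCm38 were named. How chimeric reads, duplicates and overlapping genes were handled was not given in the sources used here. Gene positions (1-based) came from a reference gene table of GRCm38.p6. The members and gene lists were chosen with earlier results of these data known.

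Contact totals and pairs were tested on all features with edgeR 4.0.16 (R 4.3.3; TMM; minimum count 5, minimum total 10; 2 libraries a group; threshold 0.05). DESeq2 1.42.0 was an alternative, and halved U3 counts were added after seeing the data. Named were all 5 members, their pairs summing to 20 counts or more (by range and example) or past the test, up to 3 called RNAs of a pathway list or else its 2 largest by mean count, and 3 nearest profiles per member; others are said to be chosen later. Exact tests over libraries compared shares.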

Additional observations from a re-analysis of the deposited data

How the results depend on the processing

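For 48 single totals and pairs, 569 of 686 alternative values kept their direction and their side of the threshold. The number of U3 totals past the threshold was 0 in every alternative run. The number of U3 pairs past it moved in several. Beside 6 higher and 2 lower pairs there were 2 and 1 with halved U3 counts (chosen after seeing the data), 20 and 4 at an adjusted p under 0.1, 3 higher under column totals, and 11 higher with the default filter (minimum count 10, minimum total 15). Leaving out 1 library gave 0 to 13 higher and 2 to 5 lower pairs. With the replicate number as a block 12 pairs were higher. Replicate deviations correlated at 0.139 for totals and 0.0219 for pairs, and with 2 numbers this gives no pairing. Among those 48 totals and pairs the block brought Rnu3b4 with Gm23935 (1.03, adjusted p = 0.0316) and the Znrd1 total (0.88, adjusted p = 0.0221) past the threshold and changed no other call.

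The share of all counts in U3 pairs differed by 0.0981 points over between-RNA pairs only and by −0.0291 to 0.0743 points with 1 library left out. Totals that changed sign were Rnu3b2 (0.995 without Gm42418 and Gm26917 pairs, 0.042 over between-RNA pairs, 0.0344 under column totals, −0.479 to 0.222 with a library left out), Rnu3b4 (0.0277, 0.115, 0.105, and −0.121 to 0.0362) and Rnu3b3 (0.0889, 0.1495, 0.139, and −0.094 to 0.0651), the last also with DESeq2 (0.0133), RLE scaling (0.0136) and the default filter (0.00908). The Tex14 total changed sign too (0.108 over between-RNA pairs, 0.0988 under column totals, −0.12 to 0.027 with a library left out). Under column totals Rnu3b4 with Gm26917 (−0.0446), Rnu3b2 with Gm26917 (−0.0409) and the Polr1a total (0.0742) turned. With a library left out these ran from −0.00353 to 0.193, −0.328 to 0.457 and −0.306 to 0.172, Rnu3b1 with Gm26917 from −0.187 to 0.0407 and Rnu3b2 with Gm42418 from −1.81 to 0.209. The cause was not tested.

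With 2 libraries a group, exact tests could not pass 0.05. Where 1 library was left alone in its group, its spread was taken from the other group. Pairs absent from any library were not analysed here.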
